A study of Rattus norvegicus with 12 samples.

Results

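The circular RNAs described here are those of complement C3 (gene symbol C3) in rat liver. Members were the entries of the circRNA table that name C3 as host gene, together with entries named by an Ensembl identifier that share a transcript or a back-splice junction with them. This gave 32 of 21876 entries, 31 named C3 and 1 named by an identifier, which describe 31 of 21068 junctions and hold 634 back-splice reads. A back-splice read is a read that crosses the point where the end of an RNA segment is joined to its own start, and it is the evidence that the RNA is a closed circle.

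The 12 libraries came from liver of wild type Wistar rats. All rats had eaten a diet with 60% of calories as saturated fat for 4 weeks and were then, after 16 h without food, injected once with 35 mg/kg of streptozotocin, a toxin of the pancreatic beta cell. Animals with fasting glucose above 16.7 mmol/L at 3 days entered the study and underwent sleeve gastrectomy, the surgical removal of most of the stomach, or a sham operation. The groups were 5 sham libraries, 5 libraries taken 3 months after sleeve gastrectomy and 2 libraries of rats labelled as having a relapse of diabetes after sleeve gastrectomy, called relapse; the sources used here give no ages and no sampling times for sham and relapse. All groups share the diet and the toxin, so no comparison here is with a rat that had neither. The glucose criterion was applied before the operation, and glucose at sampling was not examined here. The labels do not state which libraries are separate animals, and p-values therefore cover only the spread between these libraries, which may be technical.

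C3 is the protein on which the classical, lectin and alternative pathways of complement converge. Convertases cut it into C3a, a small inflammatory peptide, and C3b, which attaches to surfaces through a reactive thioester bond and marks them for uptake by phagocytes. Hepatocytes make most of the C3 in plasma, and its synthesis rises in the acute-phase response. A gene can give circles of more than 1 kind: exonic circles arise when a downstream splice site is joined to an upstream one, and intronic circles are the looped introns that splicing releases as lariats and that escape debranching. The libraries were depleted of ribosomal RNA and treated with RNase R, which digests linear RNA, so the values below concern circles and say nothing of the level of C3 mRNA.

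Libraries held 18176 to 37229 back-splice reads, and each gave 23 to 90 C3 reads. At this depth a count of 0 allows up to 165 RPM (3 reads) in the smallest library, where RPM is the number of reads of a circle per 1000000 back-splice reads of the library. Intervals and floors given here cover counting error only. Of 10 hepatocyte marker genes 8 had circular reads, with a summed level of 33989 to 54192 RPM in sham, 34689 to 46704 after sleeve gastrectomy and 29827 to 32609 in relapse. Of 12 macrophage markers 4 had reads, summing to 52.1 to 511, 34.2 to 835 and 108 to 242 RPM, with Cd68, Cd163, Marco, Clec4f, Timd4, Vsig4, Itgam and Lyz2 at 0. Of 22 markers of stellate, endothelial, biliary, pancreatic, lymphoid and granulocytic cells 3 had reads, summing to 33.1 to 325, 0 to 344 and 217 to 269 RPM.

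Most C3 reads came from intronic circles, although more of the junctions were exonic. Intronic circles held 550 of the 634 C3 reads, or 86.8% (95% Wilson interval 83.9 to 89.2%), in 14 junctions, and exonic circles held 84 reads in 17 junctions. Across all host genes, intronic circles took 5.66 to 8.02% of a library's reads that have a host gene. Of the 531 host genes with at least 100 reads, 13 had a higher intronic share than C3 and 269 had no intronic read. By number of intronic reads C3 was at position 4 of 1762 hosts, by exonic reads at position 590, and by the mean share of all host reads at position 53 of 6022.

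A single intron gave most of these reads. The entry ciRNA144 (chromosome 9, 9739070 to 9740171 on the plus strand of Rnor_6.0, intron 29 of transcript ENSRNOT00000073042, spanning 1102 positions) had 436 reads, 68.8% of the C3 reads (95% Wilson interval 65.1 to 72.3%). It was at position 4 of 2754 intronic entries of the table and at position 69 of all 21876 entries, and it was the only C3 junction with reads in all 12 libraries. The same intron gave ciRNA513, with the same start and an end 1 position earlier (46 reads), and ciRNA2084, which ends 3 positions earlier than ciRNA144 (1 read). Together the 3 ends of intron 29 held 483 reads, 76.2% of the C3 total (95% Wilson interval 72.7 to 79.3%).

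**Figure D1:**
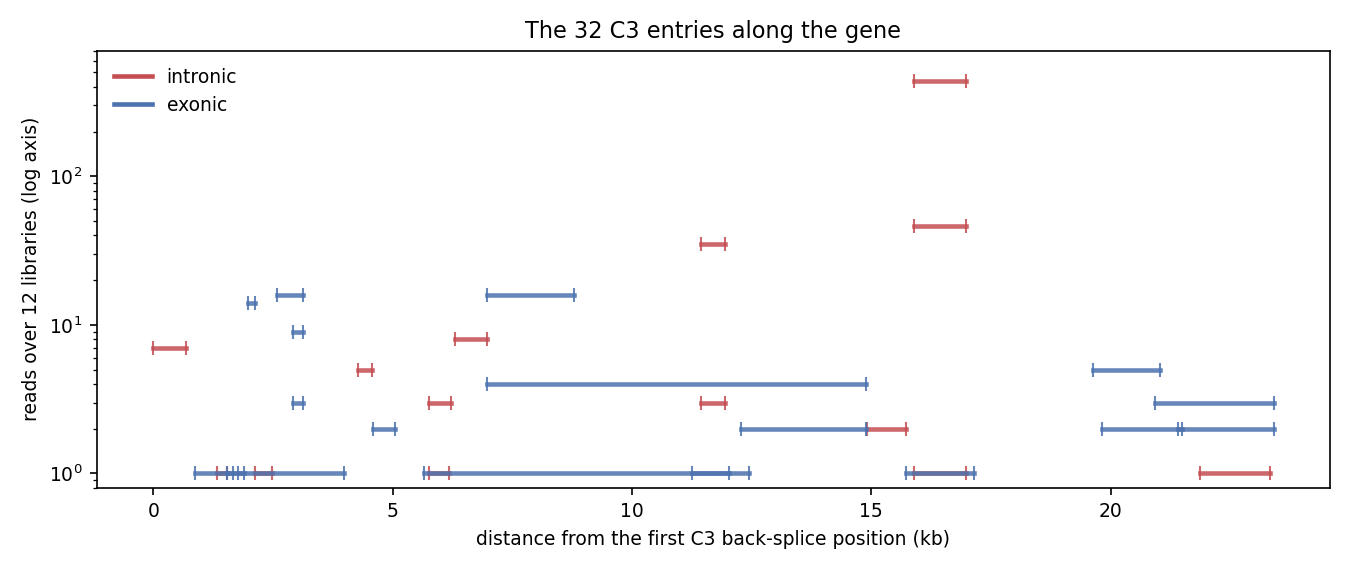
Each horizontal bar is 1 of the 32 C3 entries, drawn from its start to its end as distance in kb from the first C3 back-splice position (x axis) at its number of reads over the 12 libraries (y axis, log scale), in red for intronic and blue for exonic circles. The bar at 436 reads is ciRNA144 of intron 29, and the exonic circles lie at 16 reads or fewer.

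The remaining intronic circles were spread over 9 further introns (4, 8, 11, 15, 18, 19, 24, 28 and 38). Intron 24 was the most read of them, with 35 reads in ciRNA143 (9734633 to 9735132) and 3 in ciRNA1531 (9734633 to 9735123). Introns 18, 24 and 29 each gave more than 1 end with an unchanged start. In introns 8, 19 and 28 the circle ended 1 position before the deposited start of the next exon, and symbol entries of exons start 1 position lower than identifier entries of the same junction, so these distances are uncertain by 1 position. The circle of intron 15 (9727457 to 9727751) ended 25 positions before the deposited start of the next exon, and the single read of intron 11 ended 124 positions before it. For the other circles, intron 29 included, the table holds no C3 entry that starts at the next exon, and that distance was not computed.

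Exonic circles were sparse, and no exonic junction was read in more than 6 libraries. CircRNA9132 of exons 12 and 13 (9725777 to 9726309) had 16 reads, 5, 1 and 2 in sham 1, 3 and 5 and 4, 1 and 3 in sleeve gastrectomy 2, 3 and 5, and none in relapse. CircRNA2227 of exons 20 and 21 (9730146 to 9731971) also had 16 reads, 3 in sham 1, 5 in sleeve gastrectomy 2 and 4 in each relapse library. CircRNA2225 of exon 11 (9725160 to 9725306) had 14 reads, 8 in sleeve gastrectomy 2 and 2 and 4 in the relapse libraries. Exon 13 alone (9726103 to 9726309) had 12 reads, of which 9 were written as circRNA2226 and the 3 of sleeve gastrectomy 5 as circRNA13931, the entry named by an identifier, whose start is 1 position higher. Of the 31 C3 junctions, 24 had fewer than 10 reads, 17 were read in a single library and 11 consisted of 1 read in all.

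The make-up of the C3 reads was followed in each library. In sham 1 to 5 the intronic share was 84.7, 89.8, 97.1, 100 and 69.6% of 59, 49, 34, 23 and 23 C3 reads. After sleeve gastrectomy, libraries 1 to 5, it was 96.8, 70.4, 92.7, 93.3 and 82.6% of 62, 71, 41, 90 and 69 reads, and in relapse 1 and 2 it was 79.5 and 87.0% of 44 and 69 reads. The lowest share, that of sham 5, had a 95% Wilson interval of 49.1 to 84.4%, and the highest, that of sham 4, one of 85.7 to 100%. All 3 groups thus overlapped, and introns gave more than 69% of the C3 reads in every library.

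**Figure D2:**
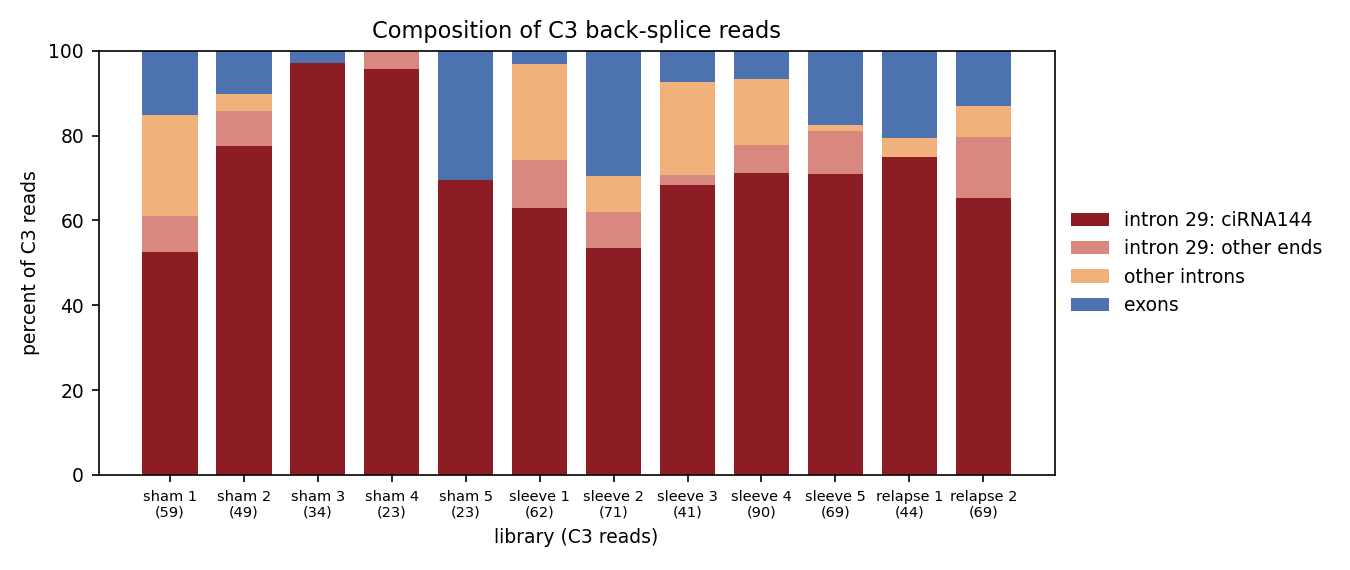
Bars show for each library the percentage of its C3 reads (their number is in brackets) that came from ciRNA144, from the other ends of intron 29, from other introns and from exons. CiRNA144 takes 52.5 to 97.1% in the 12 libraries, and sleeve gastrectomy 2 and sham 5 have the largest exonic parts.

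The intronic share averaged 88.2 ± 12.04% in sham (SD, n = 5). Sleeve gastrectomy libraries averaged 87.2 ± 10.7% (SD, n = 5) and relapse libraries 83.3 ± 5.24% (SD, n = 2). These did not differ beyond the spread between libraries (exact two-sided permutation p = 0.897 between the sleeve gastrectomy and sham libraries, 0.667 between relapse and sleeve gastrectomy and 0.619 between relapse and sham, each 0.897 adjusted over the 3 comparisons). The share of C3 reads in ciRNA144 was 78.5 ± 18.7% for sham, 65.4 ± 7.41% for sleeve gastrectomy and 70.1 ± 6.92% for relapse (SD, n = 5, 5 and 2), below the sham mean in 5 of 5 sleeve gastrectomy libraries. It did not pass either (exact permutation p = 0.206, 0.476 and 0.619 in the same order, each 0.619 adjusted). With 5 against 5 libraries such a test can reach 0.00794, and with 2 against 5 it can reach 0.0476.

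Sleeve gastrectomy against sham asks how the operation goes with the level of C3 circles. Sham 1 to 5 had 1953, 2696, 1769.7, 1153 and 1069 RPM of C3, and sleeve gastrectomy 1 to 5 had 2929.9, 3489, 2211, 2949 and 2363. All 5 sleeve gastrectomy libraries lay above the sham mean, and 4 of 5 sham libraries lay below the lowest sleeve gastrectomy library, but sham 2 lay within the other group. The means were 2788 ± 512 RPM after sleeve gastrectomy and 1728 ± 662 RPM in sham (SD, n = 5 and 5), a ratio of 1.61. The difference did not pass after adjustment over the 3 comparisons (exact permutation p = 0.0317, adjusted 0.0952). Without sham 2 it was 1302 RPM with an adjusted exact permutation p of 0.0238. Sham 2 is the only sham library that overlapped, so leaving it out sets the groups apart and this p adds no support. With any other library left out the adjusted exact permutation p was 0.0952 to 0.190.

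**Figure D3:**
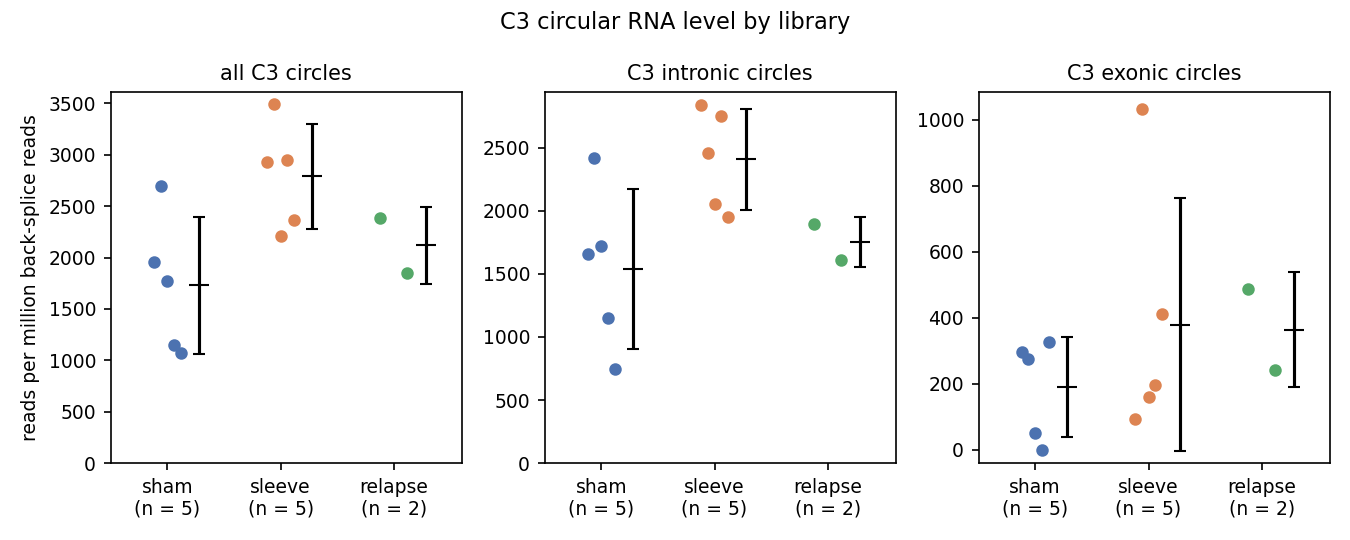
Points are libraries, and the bar beside each group is the mean with the SD (y axis, RPM; n = 5, 5 and 2), for all C3 circles, the intronic and the exonic ones. In the left panel the sleeve gastrectomy libraries lie between 2211 and 3489 and the sham libraries between 1069 and 2696.

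In the test across all host genes (edgeR, quasi-likelihood, Benjamini-Hochberg adjustment), C3 had 3586 ± 646 CPM (counts per 1000000 after TMM scaling over the tested hosts) after sleeve gastrectomy and 2248 ± 887 in sham (SD, n = 5 and 5). The log2 fold change was 0.67 (SE 0.26, 95% interval 0.15 to 1.20 before adjustment), and it did not pass the false discovery rate of 0.05 (edgeR unadjusted p = 0.0122, adjusted p = 0.908). The interval runs from a small to a more than doubled level, so a missed threshold does not show that C3 was equal in both groups. DESeq2 and limma-voom gave 0.69 and 0.74 with adjusted p of 0.864 and 0.446. Of the 1337 hosts tested in this comparison 0.15% passed, and C3 was at position 18 in order of p. An unadjusted p under 0.05 in edgeR was found for 50 of the 1337 hosts here, for 58 between relapse and sleeve gastrectomy and for 80 between relapse and sham. In bulk liver a lower level can mean fewer cells of a type or less RNA per cell, and these cannot be told apart.

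The level was then divided into its intronic and exonic reads. Intronic C3 circles had 1655, 2421, 1718, 1153 and 744 RPM in sham 1 to 5 and 2835, 2457, 2049.5, 2752 and 1952 after sleeve gastrectomy. The means of 1538 ± 633 and 2409 ± 400.1 RPM (SD, n = 5 and 5) gave an exact permutation p of 0.0397, adjusted 0.119. Without sham 2, which alone overlapped here too, the adjusted exact permutation p was 0.0238. Leaving it out again sets the groups apart, so this p adds no support. With any other library left out that p was 0.119 to 0.2. For intron 29 the means were 1423 ± 605 and 2022 ± 290.3 RPM (exact permutation p = 0.0952, adjusted 0.286). Exonic C3 circles had 298, 275, 52.1, 0 and 325 RPM in sham and 94.5, 1032, 162, 197 and 411 after sleeve gastrectomy, where sleeve gastrectomy 2 stands above the other 4. Their means, 190.1 ± 152 and 379 ± 384 RPM, did not differ beyond that spread (exact permutation p = 0.405, adjusted 0.607), and without sleeve gastrectomy 2 the second was 216 ± 137 (SD, n = 4).

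Introns other than 29 were read unevenly. They had 463, 110.04, 0, 0 and 0 RPM in sham 1 to 5 and 662, 295, 485, 459 and 34.2 after sleeve gastrectomy, so sham 1 resembled sleeve gastrectomy 1, 3 and 4 and 3 sham libraries had no read. The means were 115 ± 201 RPM for sham and 387 ± 236 for sleeve gastrectomy (SD, n = 5 and 5, exact permutation p = 0.0873, adjusted 0.262), and without sham 1 the sham mean was 27.5 ± 55.02 (SD, n = 4). The number of C3 junctions read per library was 9, 4, 2, 2 and 4 in sham and 8, 9, 9, 11 and 8 after sleeve gastrectomy (means 4.2 ± 2.86 and 9 ± 1.22, exact permutation p = 0.0397, adjusted 0.119). Without sham 1, the only sham library that overlapped, the sham mean was 3 ± 1.15 (SD, n = 4) and the adjusted exact permutation p was 0.0238. Leaving sham 1 out sets the groups apart, so this p adds no support. With any other library left out that p was 0.119 to 0.143. The number of C3 reads moved with this count, 23 to 59 per sham library and 41 to 90 after sleeve gastrectomy, and its part in the count was not tested.

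At the level of single circles, 3 of the 31 C3 junctions had enough reads to be tested, all of them intronic. CiRNA144 had 31, 38, 33, 22 and 16 reads in sham 1 to 5, 39, 38, 28, 64 and 49 after sleeve gastrectomy and 33 and 45 in relapse, with no group apart from another. Its level was 2557 ± 439 CPM after sleeve gastrectomy and 1863 ± 749 in sham, scaled to the tested junctions (SD, n = 5 and 5; log2 fold change 0.47, SE 0.29, edgeR adjusted p = 0.996). CiRNA513 of the same intron had 7, 6, 1, 6 and 7 reads after sleeve gastrectomy and 4, 4, 0, 1 and 0 in sham (log2 fold change 1.42, SE 1.06, edgeR adjusted p = 0.996). CiRNA143 of intron 24 had 10, 1, 6, 7 and 0 reads after sleeve gastrectomy and 5, 2, 0, 0 and 0 in sham (log2 fold change 1.76, SE 1.27, edgeR adjusted p = 0.996). None of the 3 passed at an unadjusted p under 0.05 in edgeR. Of all 1519 junctions tested 0% passed in any of the 3 comparisons in edgeR, with 59, 73 and 88 at an unadjusted p under 0.05, and for the C3 junctions DESeq2 and limma-voom also called 0.

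Relapse against sleeve gastrectomy asks whether C3 circles differ between the outcomes of the operation. Relapse 1 and 2 had 2382 and 1853 RPM of C3, a mean of 2118 ± 374 (SD, n = 2), and both lay below the sleeve gastrectomy mean of 2788 RPM. Relapse 1 lay within the sleeve gastrectomy range and relapse 2 below it (exact permutation p = 0.238, adjusted 0.357). Intronic C3 circles had 1895 and 1612 RPM in relapse, and the lowest sleeve gastrectomy library had 1952. The means were 1753 ± 200.1 and 2409 ± 400.1 RPM (SD, n = 2 and 5, exact permutation p = 0.0952, adjusted 0.143). How many other hosts or circles separate by such a gap was not counted. In edgeR C3 had 2645 ± 322 CPM in relapse (SD, n = 2), a log2 fold change of −0.45 against sleeve gastrectomy (SE 0.35, 95% interval −1.14 to 0.25, adjusted p = 1), where 0.0748% of the hosts passed.

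Relapse against sham compares C3 circles of the relapse libraries with those of the sham-operated. Both relapse libraries lay above the sham mean of 1728 RPM and within the sham range (exact permutation p = 0.619, adjusted 0.619). The log2 fold change in edgeR was 0.23 (SE 0.34, 95% interval −0.46 to 0.92, adjusted p = 0.989), where 0.15% of the hosts passed. Over left-out libraries it ran from 0.12 to 0.45, and with the replicate number as a block it turned to −0.041. The mean level was highest for sleeve gastrectomy, but no pair of groups passed after adjustment in the tests with all libraries. The order of the 3 groups is therefore not settled. The 3 comparisons share libraries, so their values are not independent of each other.

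The summed hepatocyte markers of the 2 relapse libraries lay below those of every sham and sleeve gastrectomy library, and their part in the C3 values of relapse was not tested. How many other hosts separate in this way was not counted. Cyp2c7 gave the most reads of this sum, 5298, and the markers did not move together. Of the 7 tested, 2 had a log2 fold change above 0 for relapse against sleeve gastrectomy and 1 against sham. Cyp2c11 had 1741 ± 708 CPM in relapse, 1165 ± 615 in sleeve gastrectomy and 1142 ± 997 in sham (SD, n = 2, 5 and 5). Of the 7 hepatocyte markers tested 0 passed in edgeR or DESeq2 in any comparison, with 0, 1 and 1 at an unadjusted p under 0.05 in edgeR (50, 58 and 80 of all 1337 hosts). Limma-voom called 1 of them, the cytochrome P450 Cyp2c7, in both relapse comparisons (14891 ± 1582 CPM in relapse, 26393 ± 5235 in sleeve gastrectomy and 25835 ± 3642 in sham; SD, n = 2, 5 and 5). Adgre1, the 1 macrophage marker tested, passed in no comparison with edgeR, DESeq2 or limma-voom and had no unadjusted p under 0.05 in edgeR, and 0 markers of other cells had enough reads. Between sham and sleeve gastrectomy the ranges of the hepatocyte and macrophage markers overlapped, and their part in the C3 values was not tested.

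Among the other complement genes listed for this comparison, C8a gave the most circular reads, 339 in 12 libraries, and no other had more than 97. Of 45 listed genes 23 had reads and 5 had enough to be tested, and 0 of the 5 passed in any comparison in edgeR, DESeq2 or limma-voom, with 1, 0 and 0 at an unadjusted p under 0.05 in edgeR, where all 1337 hosts gave 50, 58 and 80. C8a, a chain of the membrane attack complex, had 1632 ± 386 CPM for sleeve gastrectomy, 1477 ± 585 for sham and 1479 ± 308 for relapse (SD, n = 5, 5 and 2). C5, the paralogue of C3 whose cleavage starts that complex, had 491 ± 225, 423 ± 232 and 275 ± 205 CPM in the same order. Cr1l, a membrane regulator of C3 convertases, had 309 ± 267, 220.4 ± 359 and 103 ± 52.9 CPM, and C4bpa, a chain of the C4b-binding protein, had 107 ± 122, 120.2 ± 182 and 17.5 ± 24.8 CPM. C2, the protease of the classical convertase, was the gene under 0.05 before adjustment, with 102 ± 121 CPM after sleeve gastrectomy against 392 ± 104 in sham (log2 fold change −1.92, edgeR adjusted p = 0.996) and 123 ± 173 CPM in relapse.

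As a description of the 5 tested complement genes, which entered through their own counts, the median log2 fold change was 0.14 for sleeve gastrectomy against sham, where that of all 1337 hosts was 0.00. Relapse compared with sleeve gastrectomy gave −0.74 and, compared with sham, −0.98, where all hosts had −0.05 and −0.07. These medians are the values of C5, with 14 reads in relapse, and of Cr1l, with 5. C8a, the most read of the 5, had −0.16 and −0.01. Above 0 were 1 of the 5 against sleeve gastrectomy and 0 against sham, and the share of all hosts above 0 was not counted. None of the 5 passed and relapse had 2 libraries, so a shift of complement as a whole is not shown. Among the genes below the filter were Cfb, the protease of the alternative convertase, with 11 reads in all, Masp1, which activates the lectin pathway, with 13, C9, the pore-forming component, with 13, and C4a with 7.

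The complement genes with at least 20 reads had few or no intronic reads. C8a had 9 intronic reads of 339 (2.65%), C5 had 2 of 97 (2.06%), and Cr1l with 52 reads, C2 with 50, Vtn with 26 and C4bpa with 22 had none. Of the proteins with the same thioester fold, Mug2, a murinoglobulin, had 5 intronic reads of 287 (1.74%) and Pzp, an alpha-macroglobulin, 27 of 187 (14.4%). Plasma proteins of the liver varied: Tf, transferrin, had 469 of 882 (53.2%), Itih2, a hyaluronan-binding inhibitor chain, 27 of 134 (20.1%) and Alb, albumin, 21 of 495 (4.24%). Haptoglobin (Hp), named after its value was seen, had 140 of 140 (100%). No test was made of these shares.

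**Figure D4:**
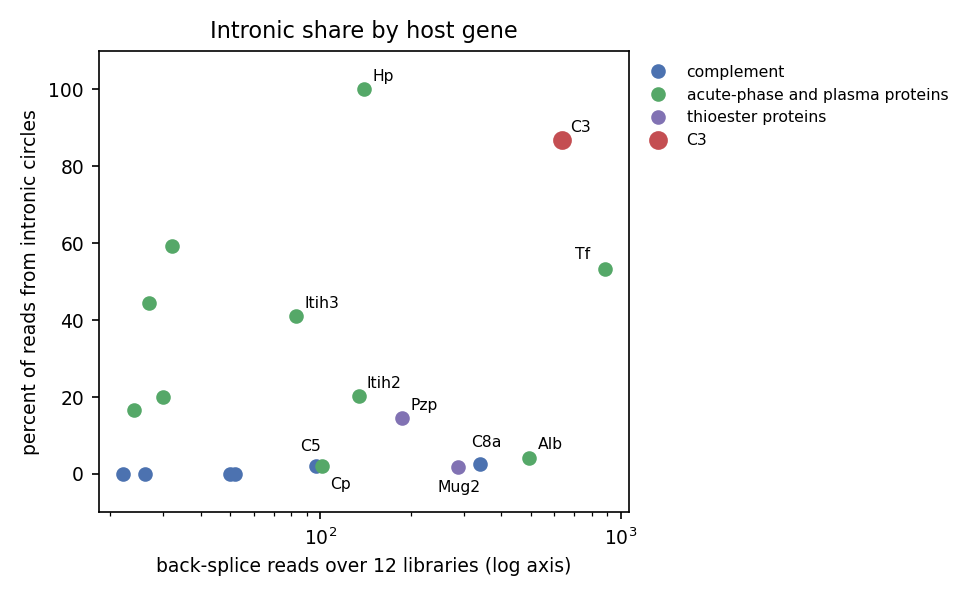
Each point is a host gene with at least 20 reads, placed by its back-splice reads over the 12 libraries (x axis, log scale) and the percentage of them from intronic circles (y axis), coloured by gene list. C3 lies at 634 reads and 86.8%, while the complement genes with 22 to 339 reads lie between 0 and 2.65%.

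The plasma proteins and the thioester proteins did not pass for level either. Of 25 acute-phase and plasma protein genes 6 were tested and 0 passed in any comparison in edgeR, DESeq2 or limma-voom, with 1 at an unadjusted p under 0.05 in each comparison in edgeR (50, 58 and 80 of all 1337 hosts). Tf had 4372 ± 770.0 CPM after sleeve gastrectomy and 4106 ± 1082 in sham, Alb had 2549.7 ± 758 and 2054 ± 672, and Itih2 had 484 ± 253 and 783 ± 412 (SD, n = 5 and 5). The 2 genes under 0.05 before adjustment are outside the rule for named genes and were chosen after their values were seen. Hp had 315 ± 255 CPM after sleeve gastrectomy and 1057 ± 909.9 in sham (SD, n = 5 and 5; log2 fold change −1.74, edgeR adjusted p = 0.514), a lower mean where that of C3 was higher. Cp, the copper protein ceruloplasmin, had 105 ± 149 CPM in relapse (SD, n = 2), a log2 fold change of −2.03 against sleeve gastrectomy and −2.18 against sham (edgeR adjusted p = 1 and 0.657). Mug2 had 1426 ± 926 CPM against 873.7 ± 465, and Pzp had 786 ± 217 against 884 ± 488. Neither of these 2 thioester proteins had an unadjusted p under 0.05 in edgeR, and DESeq2 and limma-voom called neither.

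Of 20 genes that act in C3 transcription and in the cytokine signals that reach it, 5 were tested and 0 passed in edgeR, DESeq2 or limma-voom, with 2, 0 and 2 at an unadjusted p under 0.05 in edgeR in the 3 comparisons (50, 58 and 80 of all 1337 hosts). Irak3, which restrains Toll-like receptor signalling, had 1116 ± 406 CPM for sleeve gastrectomy, 434 ± 109 for sham and 949 ± 788 for relapse (SD, n = 5, 5 and 2; edgeR adjusted p = 0.490 against sham). Il1r1, the interleukin 1 receptor, had 406 ± 113, 841 ± 356 and 205 ± 106 CPM, and Il6r, the interleukin 6 receptor, had 444 ± 302, 294 ± 216 and 411 ± 212. Il1r1 was also mostly intronic, with 98 intronic reads of 116 (84.5%).

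Over the 12 libraries the hosts whose log2 CPM ran most like that of C3 were Bmpr2, a receptor of bone morphogenetic proteins (Pearson r = 0.85), Letm1 of the inner mitochondrial membrane (0.82), Susd6 (0.79), Tkfc, a triokinase (0.77), and Luc7l2, a splicing factor (0.74). The most opposed were Ago3, an Argonaute protein (−0.84), and Kdm4a, a histone demethylase (−0.79). These are the extremes of 1336 hosts and rest on 28 to 105 reads each, the libraries share their depth and groups with C3, and they are given as a description. Kdm4a had 0 CPM after sleeve gastrectomy and in relapse and a mean of 322 in sham, so its r rests on reads in sham alone.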

How the data were processed

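Back-splice read counts deposited by the authors were used as raw counts, since they are whole numbers with totals that differ between libraries. The deposited SRPBM signal is, within a library, the count times 1 constant. The submitters' processing notes name cutadapt 1.9, FastQC, TopHat2 2.0.10 and Rnor_6.0; how circles were called is not given in the sources used here. Coordinates are as deposited: where a junction is written as 2 entries (808 junctions), the entry named by symbol starts 1 position lower.

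Counts were summed per junction and per host gene; identifiers were joined to symbols by gene record, transcript or junction (1449 of 1696). For C3 the stated member rule took precedence, which left out 2 entries with 10 reads of the identifier ENSRNOG00000046834. Tests used edgeR 4.0.16 (R 4.3.3): TMM, filterByExpr with minimum count 5 and total 15, 1 mean per group over 12 libraries, robust quasi-likelihood F-test; this left 1337 hosts and 1519 junctions. The code was tested on simulated data. DESeq2 1.42.0 and limma 3.58.1 were alternatives. Single values per library were compared by exact two-sided permutation tests, adjusted over 3 comparisons.

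The members and lists were chosen with earlier results of these data known. Named were C3 junctions with at least 10 reads, complement hosts tested, up to 3 hosts of other lists by mean CPM, and the 5 most like and 2 least like C3 in log2 CPM (prior count 2).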

Additional observations from a re-analysis of the deposited data

Results flagged for a closer look

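A sample far from the others was found in 6 of 29 group values examined (Dixon's criterion for groups of 5). For 4 of the 6, single circles with 0 reads in the other 4 libraries, any read meets the criterion, so the usual chance rate of about 1 in 20 does not apply to them. Sham 1 had 9 C3 junctions with reads, where the other sham libraries had 2 to 4, and 463 RPM of C3 introns other than 29, where the others had 0 to 110.04. It was also the deepest sham library, with 30213 back-splice reads against 18176 to 21509 in the others. The number of junctions was not scaled for depth. Sleeve gastrectomy 2 had 393 RPM of circRNA2225 and 246 RPM of circRNA2227, and the other 4 libraries of the group had 0 reads of each. Likewise sham 1 had 99.3 RPM of circRNA2227 and sham 5 had 186 RPM of circRNA2226, each with 0 reads in the other 4 sham libraries. Outside the members, circRNA9276 lies on the minus strand within C3 (9725279 to 9725979) and had 8 reads, all in sleeve gastrectomy 2, with 0 in sham.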

How the results depend on the processing

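In edgeR, DESeq2 and limma-voom the C3 gene sum passed under none of the alternatives run (other tools, normalisation, filters, symbol entries alone, the 2 groups alone, 2 further identifier entries, chosen after seeing the data, and each library left out), with log2 fold changes of 0.55 to 0.89 for sleeve gastrectomy against sham and adjusted p of 0.446 to 1; 0 C3 junctions and, in alternatives also chosen after seeing the data, 0 complement hosts passed in any. Replicate numbers showed no pairing of libraries (correlations of sham and sleeve gastrectomy deviations −0.0956 to 0.0161, and no sham library was best matched by its own number). Counting error at this depth can hide a pairing, so it is not excluded. With the number as a replicate block C3 had a log2 fold change of 0.73 for sleeve gastrectomy against sham (edgeR adjusted p = 0.986); for relapse against sham it reversed to −0.041 in edgeR and, over 2 pairs, to −207 RPM. Over left-out libraries the sleeve gastrectomy difference in RPM ran from 885 to 1302 (adjusted exact permutation p 0.0238 without sham 2 and 0.0952 to 0.190 otherwise). Leaving out sham 2 sets the groups apart, so the lowest p adds no support. The ciRNA144 share of relapse against sleeve gastrectomy ran from −0.15 to 9.63 percentage points, and the following alternatives were chosen after seeing the data. Over left-out libraries ciRNA144 of relapse against sham ran from −0.027 (without relapse 1, reversed) to 0.38 on the log2 scale. Reversals were also seen in the intronic share of sleeve gastrectomy against sham (−5.74 to 3.12 points; 1.14, 1.87, 3.12 and 0.07 without sham 3, sham 4, sleeve gastrectomy 2 or 5), in exonic RPM of relapse against sleeve gastrectomy (−137 to 149; above 0 without sleeve gastrectomy 2 or relapse 2) and in introns other than 29 of relapse against sham (−22.1 to 93.8 RPM; −22.1 without sham 3, 4 or 5, −6.42 without relapse 2). With the deposited SRPBM in place of RPM the adjusted exact permutation p of sleeve gastrectomy against sham was 0.0714. The cause of these changes was not tested. Depth limits what can be said of single circles, since 24 of 31 junctions had fewer than 10 reads and 3 could be tested; ciRNA144 itself had 16 to 64 reads a library.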
